A study of Saccharomyces cerevisiae with 44 samples.

Results

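The 8 libraries described here were taken from a fast cycling continuous culture of the budding yeast Saccharomyces cerevisiae. They were sampled around the peak of the culture's growth gene expression and just after it. The burst window holds time points 8, 9, 18 and 19, and the window after the burst holds time points 10, 11, 20 and 1, so that 4 libraries stand against 4, out of 20 fast libraries and 44 in all. Both windows were chosen from the expression profiles of these same libraries, in which cytosolic ribosomal protein genes were highest at points 8 and 9 of the nominal cycle. Ribosome assembly genes were highest at point 8 and stood higher at point 7 than at point 9. The contrast of the windows is therefore given as a description, with no test. The strain of both cultures was CEN.PK122, fed medium with 1% glucose, and no other genotype or agent is named. The fast culture was diluted at 0.12 to 0.13 per hour and sampled every 13 min. The slow culture, used here for comparison, was diluted at 0.045 to 0.05 per hour and sampled every 36 min. Replicate fermentors are not named, so the fast libraries count as 1 culture and a p-value here reflects only how its time points vary.

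In the yeast metabolic cycle, a dense culture fed glucose at a low rate alternates between phases of fast and slow oxygen uptake. In the oxidative phase, genes for ribosomes and their assembly are expressed. In the reductive building phase that follows, genes for mitochondria, DNA replication and histones are expressed, and in the reductive charging phase genes for storage carbohydrates, acetate use and fatty acid breakdown. Ribosome assembly genes commonly carry 2 promoter elements, PAC and RRPE, which bind repressors that respond to nutrient signals, and many stress and storage genes carry the STRE element bound by Msn2 and Msn4.

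Levels are in RPKM (reads per kilobase of gene and library size), and differences between windows are differences of mean log2(RPKM + 1). A gene was counted as higher or lower after the burst where this difference was at least 1 (2-fold) and the 4 values of one window all lay above the 4 of the other. Of 5820 genes tested, 181 (3.11%) were higher after the burst and 387 (6.65%) were lower. Without a minimum fold, the windows lay apart in 841 genes upward and 789 downward, and the median difference of all genes was 0.06. Scaled to the external control RNAs, 55 genes were higher and 15 lower, so that higher genes outnumbered lower ones. Of these, 46 and 12 were also among the 181 and 387. On that scale the median difference of all genes was 0.12. All 37 list medians moved by less than the median SD within windows of their members. Scaling to the controls adds the spread of the control share between libraries to every gene, which makes windows overlap more easily. Single libraries moved the counts too: the higher genes numbered 97 without time point 8, 302 without 9 and 321 without 19, and the lower genes 238 without time point 1. Because RPKM is a share of a library, a high level of abundant genes in the burst lowers the values of others. In bulk cultures fewer cells expressing a gene and less RNA per cell cannot be told apart. The 8 lowest genes held factors of ribosome assembly and enzymes of nucleotide supply, and the 8 highest held histones, hexokinase 1, a trehalose synthase subunit and an acetate transporter.

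The promoters of 2 of the 8 lowest and 3 of the 8 highest genes are printed, picked for holding the most motif kinds among the 8. As examples chosen by motif content, the printed promoters do not show how lower and higher genes differ. They run from 250 bases before to 50 bases after the start codon, 5′ to 3′, in the RefSeq R64 genome (the sacCer3 sequence), so they include the first codons. Capitals mark any match, on either strand, to 10 motifs: the PAC core GATGAG, the RRPE core AAAATTT, the Rap1 box core CCCATAC, MCB ACGCGT, SCB CGCGAAA, STRE AGGGG, the Hap complex box CCAAT, Gcn4 TGACTCA, Cbf1 CACGTG and the Met31/32 core CTGTGG.
NSR1, chrVII:807607-807906, minus strand: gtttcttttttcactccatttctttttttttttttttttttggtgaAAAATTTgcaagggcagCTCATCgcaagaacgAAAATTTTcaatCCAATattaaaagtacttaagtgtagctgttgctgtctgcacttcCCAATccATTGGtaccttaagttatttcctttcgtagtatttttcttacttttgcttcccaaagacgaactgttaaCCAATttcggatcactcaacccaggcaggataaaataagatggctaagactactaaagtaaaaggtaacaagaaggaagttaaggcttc
URA7, chrII:145679-145978, minus strand: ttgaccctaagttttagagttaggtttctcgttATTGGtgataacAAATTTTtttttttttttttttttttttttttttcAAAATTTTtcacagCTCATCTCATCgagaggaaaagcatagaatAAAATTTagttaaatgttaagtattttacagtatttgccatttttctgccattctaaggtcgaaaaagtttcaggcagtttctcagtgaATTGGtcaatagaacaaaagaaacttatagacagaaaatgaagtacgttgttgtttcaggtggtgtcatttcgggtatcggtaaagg
HHF1, chrII:255635-255934, minus strand: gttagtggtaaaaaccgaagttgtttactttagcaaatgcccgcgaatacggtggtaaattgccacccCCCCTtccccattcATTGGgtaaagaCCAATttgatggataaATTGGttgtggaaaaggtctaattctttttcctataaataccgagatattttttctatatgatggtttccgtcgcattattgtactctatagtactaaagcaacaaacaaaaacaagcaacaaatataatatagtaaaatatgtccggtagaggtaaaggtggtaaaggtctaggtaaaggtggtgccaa
TSL1, chrXIII:70374-70673, plus strand: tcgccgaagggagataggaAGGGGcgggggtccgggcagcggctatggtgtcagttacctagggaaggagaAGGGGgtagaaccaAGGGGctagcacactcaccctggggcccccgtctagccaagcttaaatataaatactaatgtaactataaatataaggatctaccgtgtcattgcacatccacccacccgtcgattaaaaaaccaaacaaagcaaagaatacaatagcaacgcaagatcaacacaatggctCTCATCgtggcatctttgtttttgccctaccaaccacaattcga
HXK1, chrVI:255000-255299, minus strand: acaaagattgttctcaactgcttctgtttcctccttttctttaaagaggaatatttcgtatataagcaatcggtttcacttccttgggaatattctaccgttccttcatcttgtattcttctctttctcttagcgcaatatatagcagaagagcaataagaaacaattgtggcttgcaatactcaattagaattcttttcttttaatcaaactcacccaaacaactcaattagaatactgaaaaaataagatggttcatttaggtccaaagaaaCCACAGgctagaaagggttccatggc

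NSR1, a nucleolar protein needed for pre-rRNA processing, had a PAC core starting 187 bases before its start codon and RRPE cores at 204, 172 and 171 bases, the last 2 of which overlap as reverse complements. URA7, a CTP synthase, had 2 overlapping PAC cores, at 156 and 151 bases, among 4 RRPE matches. TSL1, a regulatory subunit of trehalose synthase, had STRE matches at 231, 179 and 165 bases, and its only PAC match lay inside the coding sequence. HHF1, coding for histone H4, had 1 STRE and 3 Hap complex boxes, and HXK1, hexokinase 1, had a Met31/32 core within its coding sequence only.

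Promoters could be read for 384 of the 387 lower genes, 176 of the 181 higher genes and 5584 of the 5820 genes tested. The PAC core was present in 63.5% of the lower promoters, 14.2% of the higher ones and 19.8% of all. The RRPE core was present in 70.3%, 14.8% and 24.0% in the same order, and both cores together in 53.6% of the lower and 8.2% of all promoters. STRE was present in 9.9% of the lower, 41.5% of the higher and 22.0% of all promoters. The Hap complex box did not follow this split, at 40.4%, 40.9% and 43.9%. Among ribosome assembly genes, 92.5% of promoters had PAC and 94.0% RRPE, whereas among cytosolic ribosomal protein genes the shares were 10.9% and 29.9%. These are descriptions of letter matches, not of bound sites.

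**Figure D1:**
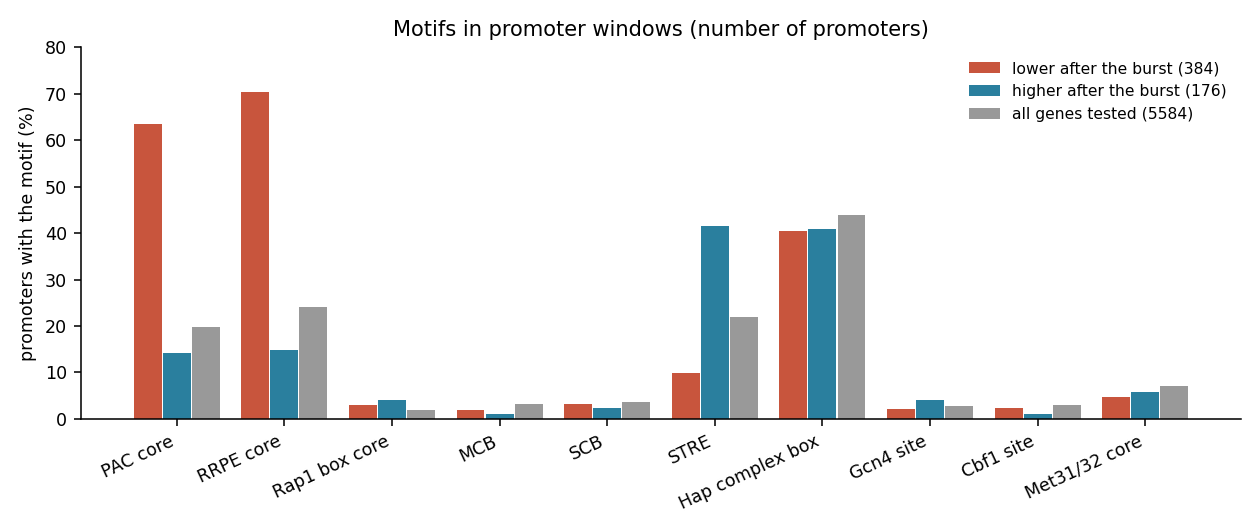
Share of promoter windows, in percent, with at least 1 match to each of 10 motifs on either strand, for the 384 lower genes (red), the 176 higher genes (blue) and all 5584 promoters (grey). PAC and RRPE stand highest in the lower genes, at 63.5% and 70.3%, and STRE in the higher genes, at 41.5%.

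Ribosome assembly had the lowest median difference of all 37 gene lists. Of its 134 genes, 121 were lower and 0 were higher, against 6.65% and 3.11% of all genes. The median difference was -1.74, against 0.06 over all genes. NSR1 (YGR159C, sacCer3 chromosome VII, 806412 to 807656, minus strand) stood at 819 RPKM at time point 8, 116 at 9, 371 at 18 and 107 at 19 in the burst. After it, NSR1 stood at 80.4 RPKM at time point 10, 28.9 at 11, 60.7 at 20 and 14.0 at 1. Every value after the burst lay below every burst value, and the difference was -2.69 with a pooled SD within windows of 1.26. The level descended through both windows: the first burst point of each passage was the higher and time point 1 was the lowest of the 8 libraries.

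DBP2 (YNL112W), an RNA helicase with a role in pre-rRNA processing, moved from 257, 41.7, 132 and 32.2 RPKM at time points 8, 9, 18 and 19 to 24.1, 12.7, 21.5 and 5.81 at 10, 11, 20 and 1. The order of the libraries was that of NSR1, and the difference was -2.46 (SD 1.16). DRS1 (-2.24), an RNA helicase of large subunit assembly, ERB1 (-2.23), a large subunit assembly factor, and ECM1 (-2.27), a pre-ribosome export factor, were also among the 8 lowest genes.

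The lowest gene of all was AAH1 (YNL141W, chromosome XIV, 359596 to 360639, plus strand), the adenine deaminase of purine salvage. It stood at 560.1, 110.2, 294 and 65.9 RPKM at time points 8, 9, 18 and 19 and at 46.2, 21.5, 32.04 and 9.29 at time points 10, 11, 20 and 1. The windows did not overlap and differed by -2.94 (SD 1.18). URA7 (YBL039C) went from 339, 69.9, 174 and 53.6 RPKM in the burst to 44.9, 18.3, 33.5 and 7.07 after it, a difference of -2.47; it overlaps YBL039C-A on the same strand, so reads of the pair cannot be told apart. GUA1, the GMP synthase, differed by -2.02 (734, 237, 479 and 163 RPKM against 134, 73.5, 116 and 41.5). Of the 34 purine and pyrimidine genes, 13 were lower and 0 higher, with a median of -0.95. Over all genes 6.65% were lower.

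**Figure D2:**
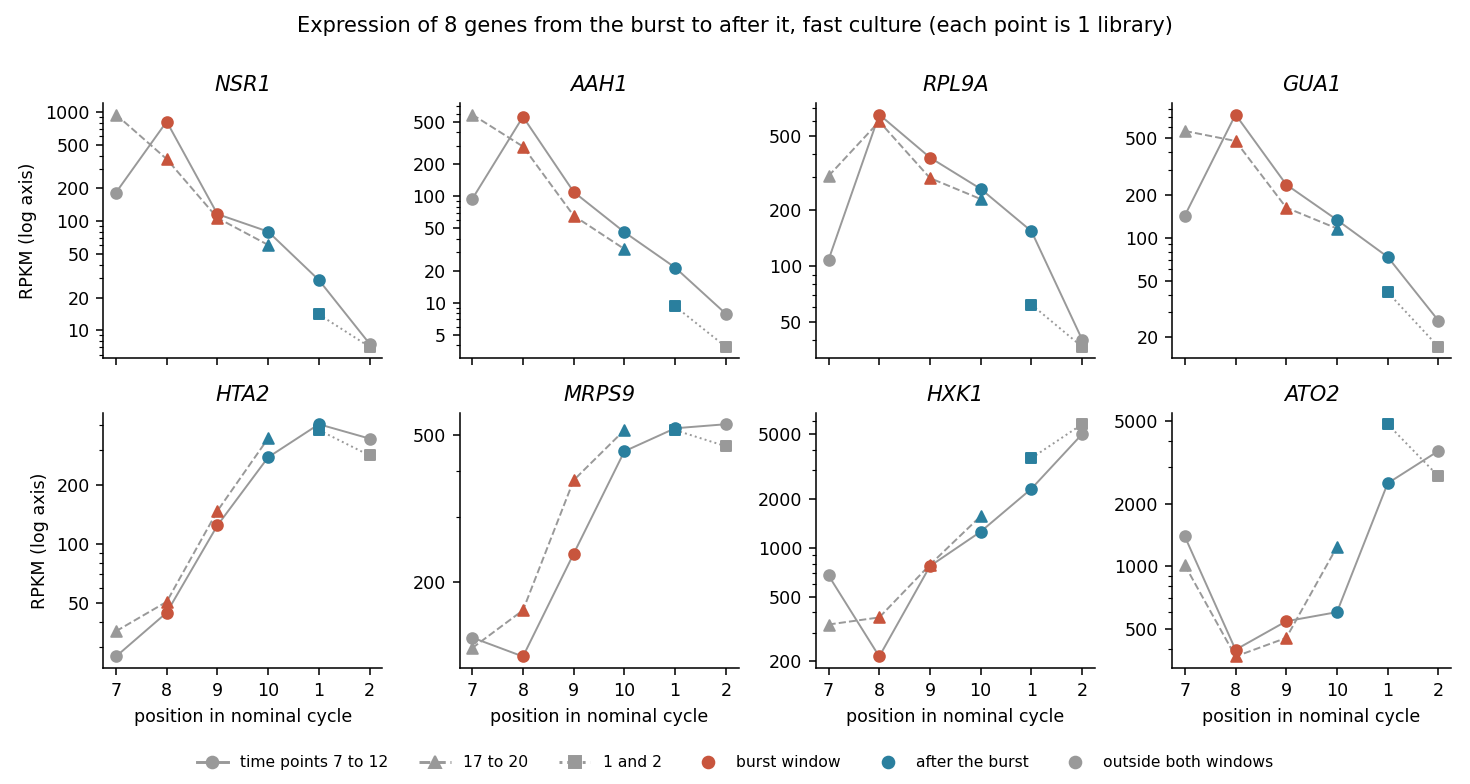
RPKM on a log axis of 8 genes at positions 7 to 10, 1 and 2 of the nominal cycle; each point is 1 library, circles are time points 7 to 12, triangles 17 to 20 and squares 1 and 2, with burst libraries in red, libraries after the burst in blue and others in grey. NSR1, AAH1, RPL9A and GUA1 descend through both windows, HTA2 and MRPS9 climb and level off, and HXK1 and ATO2 are higher at position 1 than at 10.

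All 137 cytosolic ribosomal protein genes differed in the downward direction, between -1.56 and -0.44, with a median of -1.06. Both criteria were met by 69 of them, against 6.65% of all genes. The median RPKM over the 137 genes was 627, 382, 572 and 381 at time points 8, 9, 18 and 19, and 343, 223, 355 and 108 at 10, 11, 20 and 1. Time point 1 stood lowest and the first points after the burst stood close to the second points of the burst. The 2 members with the largest difference were RPL9A (YGL147C; 649, 382, 596 and 296 RPKM against 259, 154, 229 and 62.2) and RPL13A, at -1.56 and -1.39. Many ribosomal protein genes have a near-identical paralog, and the handling of reads with several matches was not stated in the labels, so the split between paralogs is uncertain.

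Some subunits of the polymerases that transcribe ribosomal and transfer RNA were lower too. Their counts are to be read against the 6.65% of all genes that were lower. Of 15 genes for RNA polymerase I and its factors, 7 were lower and 0 higher, with a median of -0.90. RPA49 (YNL248C), a specific subunit, went from 379, 114, 245 and 101.5 RPKM to 77.2, 33.3, 59.4 and 13.3, a difference of -2.23, and RPA135, its second-largest subunit, differed by -2.11. Of 18 RNA polymerase III genes 4 were lower, led by RPC53 (-1.35) and RPC82 (-1.25). Of the members that did not meet both criteria, 3 of the RNA polymerase I list and 7 of the RNA polymerase III list had a difference above 0.

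Other growth lists held smaller differences, to be read against the 6.65% of all genes that were lower. Of 39 translation factors, 7 were lower, among them GCD10 (-1.63), a subunit of the tRNA methyltransferase that modifies the initiator tRNA, and YEF3 (-1.61), the fungal elongation factor 3. Of 19 cytosolic aminoacyl-tRNA synthetases 3 were lower, led by KRS1 (-1.42) and WRS1 (-1.05). Of 19 RNA exosome genes 4 were lower, led by AIR1 (-1.64) and the helicase MTR4 (-1.63), and of 24 nuclear transport genes 2 were lower, among them the importin SXM1 (-1.12). Amino acid synthesis held 4 lower and 1 higher of 67, a share near that of all genes, with LEU9 (-1.65) and the serine hydroxymethyltransferase SHM2 (-1.60) lowest. SAM1, an S-adenosylmethionine synthetase, was the only lower gene of the 32 for sulfate assimilation and the methyl cycle, at -1.52.

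Histone genes were the list with the highest median. Of its 10 genes, 9 were higher and 0 lower, against 3.11% and 6.65% of all genes. The median difference was 1.54. HTA2 (YBL003C, chromosome II, 235394 to 235792, minus strand), coding for histone H2A, stood at 44.8, 124, 50.8 and 147 RPKM at time points 8, 9, 18 and 19. It stood at 275, 405, 343 and 378 RPKM at 10, 11, 20 and 1, so that the lowest value after the burst was above the highest burst value, with a difference of 2.09 (SD 0.64). The H4 genes HHF1 (208, 339, 230.0 and 455 against 922, 1321, 1009.8 and 995 RPKM) and HHF2 differed by 1.84 and 1.83. The 2 H4 genes code for the same protein, so their reads may not be fully separated. The 58 genes of DNA replication and the G1/S transition held 0 higher and 0 lower genes, with a median of 0.05 and members between -0.53 and 1.17.

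Some genes of the mitochondrial ribosome and of protein synthesis in mitochondria were higher, to be read against the 3.11% of all genes that were higher. All 75 mitochondrial ribosomal protein genes differed upward, between 0.42 and 1.26, and 18 met both criteria (median 0.93). MRPS9 (YBR146W), a small subunit protein, stood at 125, 239, 167 and 378 RPKM in the burst and at 452, 522, 516.2 and 516.1 RPKM at time points 10, 11, 20 and 1. The values after the burst were nearly level, while the burst values differed up to the 378 RPKM of time point 19. MRPL23, a large subunit protein, differed by 1.26 as well. Of 48 genes for mitochondrial translation and genome upkeep 14 were higher, led by the phenylalanyl-tRNA synthetase MSF1 (1.52) and the elongation factor MEF1 (1.31).

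Assembly factors of the respiratory chain differed more between the windows than the chain itself. From position 8 to 9, inside the burst, the chain genes had a median step of 0.71 and the assembly genes one of 0.95. The step over all genes was 0.10. Of the 41 chain genes 28 were highest at position 9, and of the 35 assembly genes 2, against 602 of 5820 genes. Between the windows 3.11% of all genes were higher. Of 35 assembly genes 12 were higher (median 0.92), and of 41 genes for respiratory chain and ATP synthase subunits 1 was higher (median 0.18). That gene was NDE2, an external NADH dehydrogenase, at 41.0, 46.5, 28.5 and 48.0 RPKM in the burst and 57.9, 112, 64.1 and 281 after it. COX17, a copper chaperone for cytochrome oxidase, had a difference of 1.66, but its 378 RPKM at time point 19 lay above the 343 at time point 10, so the windows overlapped. Of 43 import genes 4 were higher, led by MIA40 (1.31), the receptor of the intermembrane space, and HSP60 (1.27), the matrix chaperonin. In the tricarboxylic acid cycle the citrate synthase CIT1 was higher (1.41) and the other 10 genes were not, ACO1 among them at 0.96.

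Carbon storage and acetate genes formed a further group. Of 21 genes for ethanol and acetate use 8 were higher, of 19 for trehalose and glycogen 7, and of 41 for beta-oxidation and the peroxisome 3, with medians of 1.14, 1.12 and 0.50. Over all genes 3.11% were higher. From position 7 to 8, into the burst, the median steps of these lists were -1.59, -1.25 and -1.2, against 0.02 over all genes. The median steps of these lists from position 10 to 1 were 0.94, 0.71 and 0.68, against -0.07 over all genes. Median beta-oxidation RPKM was 60.1, 40.6, 41.7 and 39.2 in the burst. It was 44.6, 54.1, 42.4 and 151 at time points 10, 11, 20 and 1. For ethanol and acetate use it was 200, 249, 136 and 151 against 255, 324, 239 and 1030. For trehalose and glycogen it was 40.0, 95.1, 60.5 and 65.9 against 103, 149, 93.8 and 149. Beta-oxidation medians after the burst, except at time point 1, lay in the burst range. Of 24 genes for glycolysis and fermentation 5 were higher, with a median of 0.38 and a step of -0.21 from position 10 to 1. That list also held 1 lower gene, the pyruvate decarboxylase PDC6, at -1.09. HXK1 (YFR053C, chromosome VI, 253592 to 255049, minus strand) stood at 214, 772, 373 and 787 RPKM in the burst and at 1257, 2310.1, 1567 and 3564 at time points 10, 11, 20 and 1. The windows lay apart and the difference was 2.09 (SD 0.79). YFR052C-A, also among the 8 highest genes, had a difference of 2.00. It overlaps HXK1 on the same strand, so reads in the shared stretch cannot be told apart. ATO2 (YNR002C), a transporter of the ammonium and acetate family, stood at 397, 544, 368 and 452 RPKM in the burst and at 601, 2502, 1238 and 4809 after it, a difference of 1.99. Among the 8 libraries of the windows, time point 1 was the highest for HXK1 and ATO2.

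TSL1 (YML100W) went from 13.5, 72.8, 32.5 and 55.2 RPKM to 80.3, 156, 104 and 225, a difference of 1.81. GPH1, glycogen phosphorylase, differed by 1.57 and overlaps YPR160W-A on its strand. CIT2, the peroxisomal citrate synthase of the glyoxylate cycle, differed by 1.65, YAT2, a carnitine acetyltransferase, by 1.78, and TDH1, a glyceraldehyde-3-phosphate dehydrogenase, by 1.46. CAT2, another carnitine acetyltransferase, had 850.3 RPKM at time point 1 but 51.3 at time point 10, below the 70.6 of time point 8, and was not counted as higher. The highest gene of all was YGR067C (chromosome VII, 622372 to 624786, minus strand; 39.6, 87.9, 46.2 and 65.4 against 117, 381, 181 and 652 RPKM), at 2.22, for which no role is given here.

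Few members met both criteria in the lists of heat shock proteins (2 of 25 higher, HSP26 at 1.11 and HSP78 at 1.03), fatty acid synthesis (1 of 20 higher, the desaturase OLE1 at 1.42), heme and iron-sulfur synthesis (1 of 25, IBA57 at 1.33), autophagy (1 of 31, ATG7 at 1.08) and oxidant defence (1 of 25, the peroxiredoxin AHP1 at 1.28). HSP26 stood higher before the burst window, at 8968 and 4418 RPKM at time points 7 and 17, than at any point after the burst. Hexose transporters held 1 higher gene of 13, HXT10 at 1.29, while HXT4 differed by -2.30 with overlapping windows. Origin licensing held 1 lower gene of 15, CDC6, at -1.10. Of all genes tested 3.11% were higher and 6.65% lower, so a count of 1 in lists of this size lies near those shares. The lists for chromosome segregation (42 genes), B-type cyclins (18), daughter and septum genes (15), ergosterol (25), phospholipids (22), iron uptake (22) and the proteasome (33) held none in either direction. Phospholipid synthesis had a median of -0.03, which turned to 0.03 when values were scaled to the control RNAs. ACT1, coding for actin, differed by 0.16 (SD 0.21).

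**Figure D3:**
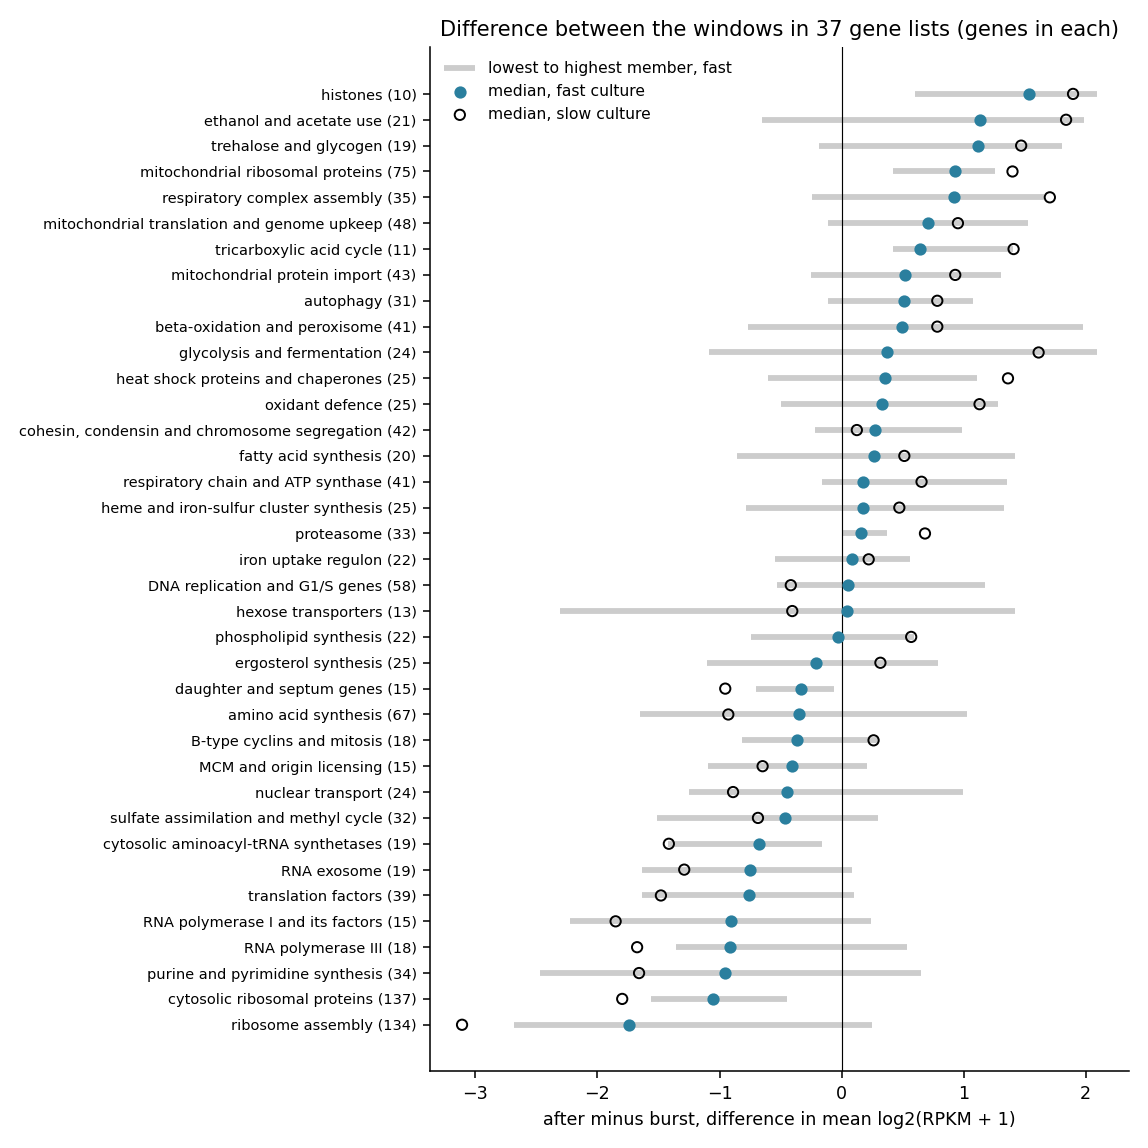
Difference after minus burst on the log2(RPKM + 1) scale for 37 gene lists; filled points are list medians in the fast culture, grey bars run from its lowest to its highest member, and open points are medians in the slow culture. Ribosome assembly stands lowest at -1.74 and histones highest at 1.54 in the fast culture.

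The same genes were set beside the slow culture, whose libraries the fast windows do not use. The slow windows, time points 1 and 13 against 12 and 24, were themselves taken from known profiles of the same growth genes, so no test is given and the shared direction is not independent evidence. In the slow culture 871 genes (15.0%) were higher and 894 (15.4%) were lower by the same criteria with 2 libraries against 2. Of the 181 genes higher in fast, 172 (95.0%) were higher in slow and 0 lower, and of the 387 lower in fast, 383 (99.0%) were lower in slow. The median differences of these genes were larger in slow, at 1.96 against 1.18 and at -2.47 against -1.41. One slow step lasts 36 min and one fast step 13 min, so the sizes are not matched in time. INO1, which makes inositol phosphate, was at -0.75 in fast and at 3.88 in slow, and was the member of its list with the largest fast difference.

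**Figure D4:**
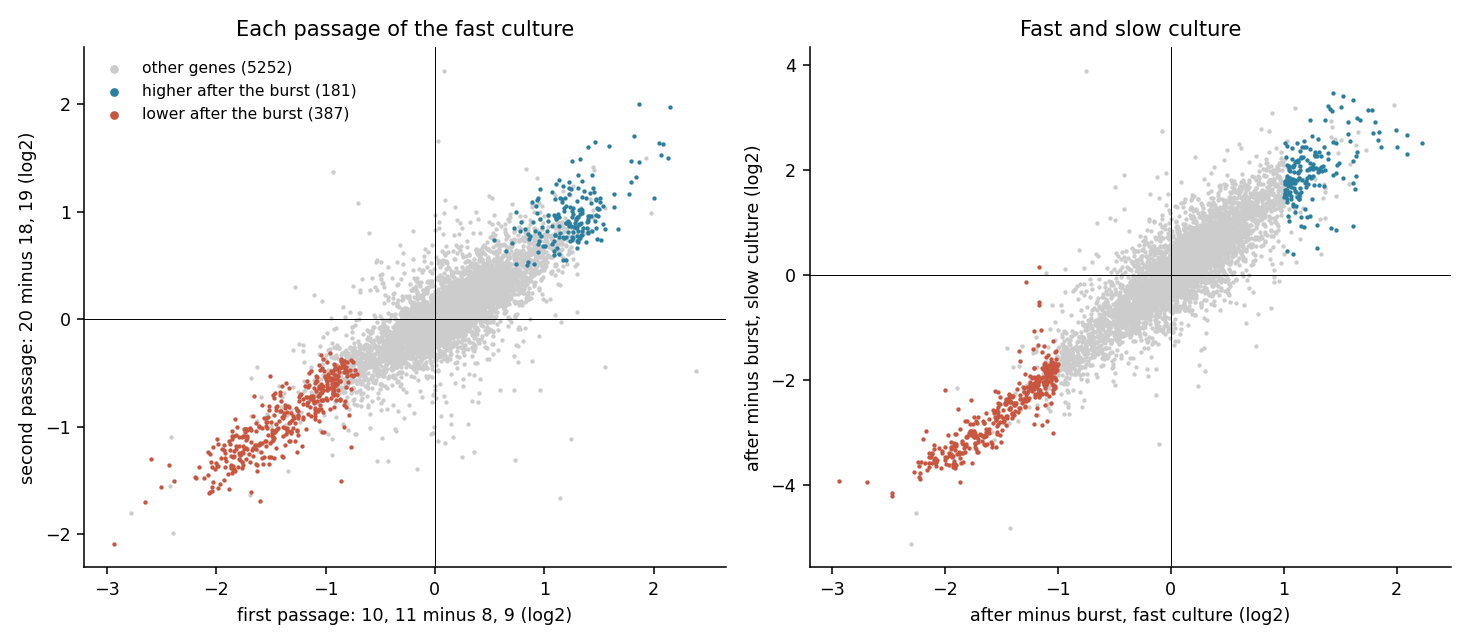
Each point is 1 of 5820 genes, in log2(RPKM + 1) differences: on the left the second passage (time point 20 minus 18 and 19) against the first (10 and 11 minus 8 and 9), on the right the slow against the fast culture. Genes counted as higher are blue (181) and lower red (387); their signs in the left panel are fixed by how they were counted, and the slow windows on the right were also picked from known profiles.

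The culture was sampled through 2 passages from burst to after it, and time point 1 follows a burst that was not sampled. The change in each passage was compared with limma's moderated test of the interaction over time points 8 to 11 and 18 to 20. No gene passed with Benjamini-Hochberg adjusted p under 0.05 and 2-fold (0.0% of 5820); 30 genes had an unadjusted p under 0.05 and the smallest adjusted p was 0.9986. With no filter on low values 2 genes passed. The fit takes the points of a window as replicates, so the step inside the burst adds to its error (SE of 1.73 for NSR1), and the result does not show that the passages were alike. The median change of the lower genes was -1.34 in the first passage and -0.91 in the second, and that of the higher genes 1.26 and 0.92. These values compare unlike points, since the first passage includes a library at position 1 and the second does not, and the lower genes had a median step of -1.08 from position 10 to 1.

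The nominal 130 min period did not place the 2 bursts at the same point. In the first passage 380 of the 387 lower genes had their maximum at time point 8, whereas in the second 184 had it at time point 17 and 200 at 18. The libraries just before the burst window show the same: NSR1 had 183 RPKM at time point 7 but 949.6 at 17. Past the window after the burst its values were close, at 7.07 and 7.54 RPKM at time points 2 and 12. Time points 1 and 11 hold the same nominal position, yet 372 of the 387 lower genes were lower at time point 1, with a median gap of -0.84. Over all 5820 genes, 3969 were lower at time point 1 and 1850 higher. Among the 181 higher genes 130 were higher at time point 1.

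**Figure D5:**
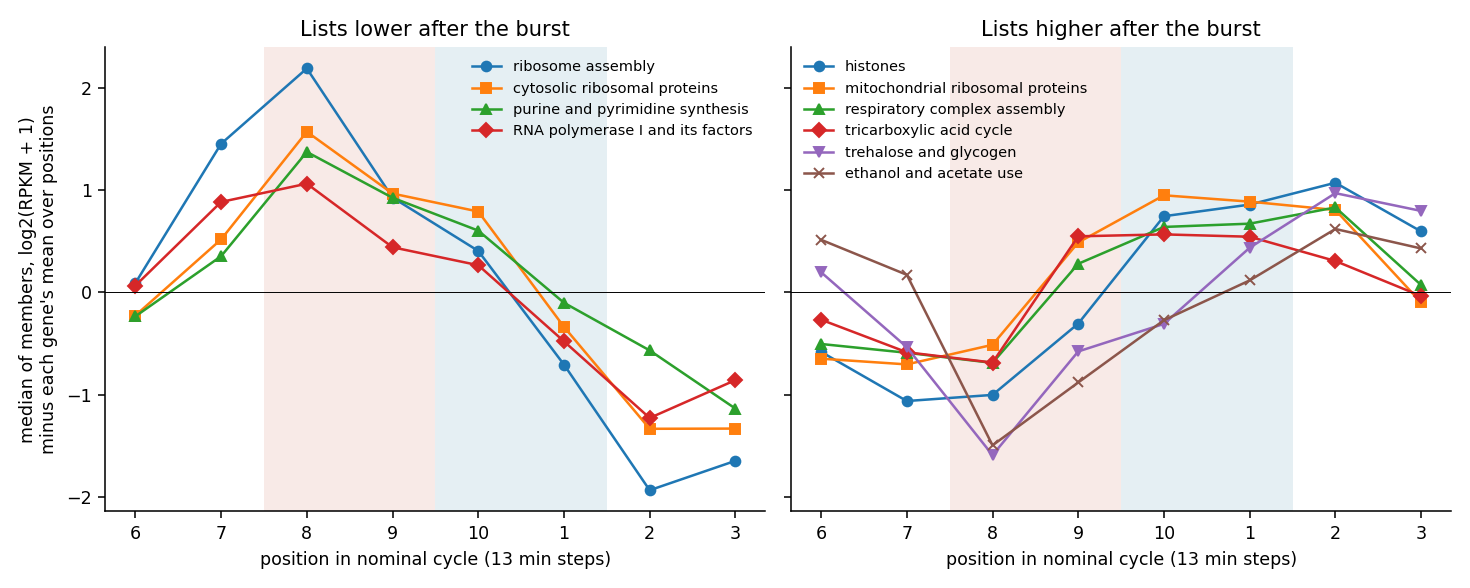
Median over list members of log2(RPKM + 1) minus each gene's own mean over the 10 positions, at positions 6 to 10 and 1 to 3 in 13 min steps, each the mean of 2 libraries; the burst window is shaded red and the window after it blue. Lists of the left panel are highest at position 8, and in the right panel the tricarboxylic acid cycle is level from position 9 to 1 and lower after it, while trehalose and glycogen climb until position 2.

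The step between the points inside a window is not the contrast that defined the windows, and it was tested. For genes of ribosomes and their assembly, whose profile placed the windows, the step is given as a description. Time points 9 and 19 were compared with 8 and 18 by limma over all 20 fast libraries, with Benjamini-Hochberg adjusted p under 0.05 and at least 2-fold. The fit takes libraries at the same position as replicates. The unlike timing of the 2 bursts therefore enters its standard errors, adjusted p-values and counts. Within the burst 235 genes (4.04%) rose and 185 (3.18%) fell in this step of 13 min. The threshold was passed downward by 92 of the 134 ribosome assembly genes, and by 0 of the 137 cytosolic ribosomal protein genes in either direction. These 2 counts describe and do not test, since 131 of the 134 and 134 of the 137 were highest at position 8. The 185 falling genes include those 92, so that total is not free of how the windows were placed. The step of NSR1 was -2.29 (SE 0.56), that of DBP2 -2.30 (SE 0.48) and that of RPL9A -0.89 (SE 0.41), and the ribosomal protein median was -0.63 in this step and -1.14 from position 10 to 1.

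Part of each mitochondrial list rose within the burst, where 4.04% of all genes passed upward. Passing upward were 30 of 75 mitochondrial ribosomal protein genes, 18 of 48 for mitochondrial translation, 16 of 35 for respiratory complex assembly, 8 of 11 for the tricarboxylic acid cycle, 6 of 41 for the respiratory chain, 5 of 43 for mitochondrial import and 5 of 10 histones. CIT1 rose by 1.75 (SE 0.27, limma adjusted p = 0.00206), ACO1, the aconitase, by 1.52 (SE 0.27) and MSF1 by 1.62 (SE 0.24). From position 9 to 10 the tricarboxylic acid cycle had a median step of -0.01 and the histones one of 0.98, against 0.02 over all genes.

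The 5 genes with the largest rise in this step were AIM33, GDB1, SNZ2, GPH1 and ACH1. AIM33 (YML087C; 41.0 and 90.3 RPKM at time points 8 and 18, 197 and 253 at 9 and 19) rose by 1.86 (SE 0.32, limma adjusted p = 0.00283). GDB1, the glycogen debranching enzyme, rose by 1.85, and the acetyl-CoA hydrolase ACH1 by 1.82. SNZ2, a vitamin B6 synthesis gene with close relatives in the genome, rose by 1.83. The 5 with the largest fall were HXT4, a hexose transporter (-3.13, from 109 and 39.2 to 10.3 and 4.09 RPKM), YOR338W (-2.70), DBP2, FDH1, a formate dehydrogenase (-2.30), and NSR1. DBP2 and NSR1 are ribosome assembly genes, whose profile placed the windows, so their falls describe and do not test. FDH1 stood at 723 RPKM at time point 1 and between 47.0 and 81.5 RPKM at the other 3 points after the burst.

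These counts depend on scaling and on single libraries. Scaled to the control RNAs, 0 genes passed upward and 1 downward, although the median step of ribosome assembly was -1.12 on that scale and that of mitochondrial ribosomal proteins 1.10. Without time point 8 the counts were 30 and 0, without 19 they were 76 and 2, without 18 they were 497 and 278, and without 9 they were 256 and 72. Scaled to the median of each library they were 165 and 263, and to its upper quartile 193 and 241.

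After the burst, position 10 was compared with position 1 in the same way (time points 10 and 20 against 1 and 11). The fit takes time points 1 and 11 as replicates, so the gap between them adds to its error. Few calls do not show that the 2 positions were alike. Ribosome assembly and cytosolic ribosomal protein genes stood higher at position 10 by medians of 1.12 and 1.14, with 0 genes called. ZPR1, a zinc finger protein that assists elongation factor folding, was the 1 gene (0.0172%) higher at position 10, by 1.13 (SE 0.20, limma adjusted p = 0.0446). The 8 genes (0.137%) lower at position 10 were ARO9, ATO2, ARO10, YGR067C, ALD6, CRC1, YAT2 and CIT2. ARO9, an aromatic aminotransferase, stood at 8.11 and 14.3 RPKM at time points 10 and 20 and at 41.5 and 231 at 11 and 1 (-3.07, SE 0.56, limma adjusted p = 0.0446). ARO10, a decarboxylase of the same pathway, had -1.95 (limma adjusted p = 0.0301) and ALD6, the cytosolic acetaldehyde dehydrogenase, -1.57 (limma adjusted p = 0.0251).

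CRC1, the mitochondrial carnitine carrier, is named to complete this count and was picked after its values were seen; it had 86.7 and 126 RPKM at time points 10 and 20 against 225 and 420.1 at 11 and 1. At an unadjusted p under 0.05 there were 1458 genes. The count depends on single libraries: without time point 11, 512 genes were higher and 175 lower at position 10, while without time point 1 or without time point 10 the counts were 0 and 0. Without time point 20 they were 0 and 5.

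Depth was 7.6 to 13.61 M reads in the 4 libraries after the burst and 8.19 to 12.94 M reads in the burst. The external control RNAs (ERCC), added to each RNA sample in a set amount, took 1.01 ± 0.269% of gene reads after the burst and 1.06 ± 0.273% in it (SD, n = 4). This difference of -0.05 percentage points had p = 0.857 in an exact two-sided permutation test, whose smallest possible p is 0.0286, and it changed sign when time point 1 or 19 was left out. Scaled to these controls, the median difference of all genes was 0.12. Across libraries the control share ran from 0.755 to 1.37% after the burst and from 0.717 to 1.36% in it, and scaling to it adds that spread to every gene.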

How the data were processed

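Poly(A) RNA of 44 libraries was sequenced after external ERCC control RNAs had been added, per the labels' protocols, and samples were assigned at random to 4 extraction groups; which sample went to which group was not stated in the labels. RPKM values were deposited by the authors as 1 table, made, per the file headers, with HOMER from sense-strand reads over SGD gene bodies of sacCer3 and the 92 controls, and the deposited gene body length was used only for depth. Per the submitters' processing notes, TopHat2 2.0.10 and FastQC 0.10.1 were run. Low values were whole multiples of 1 read (tolerance 0.1) in 100.0% of those checked, which gave the depth. Here, control rows were left out, values were taken as log2(RPKM + 1), and 5820 of 6692 genes averaging 1 RPKM or more over all libraries were kept.

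The windows were described without a test. Positions within the windows and passages were tested with limma 3.58.1 (R 4.3.3, trend) and Benjamini-Hochberg adjustment over all genes; the code was checked on simulated data. Position is the time point in a nominal cycle of 10 intervals, with 2 libraries each. Coordinates are those of the file; 6000 of 6008 genes found in the RefSeq R64 table had identical ends, and promoters were read there. Python 3.11.15, numpy 2.4.6, pandas 2.3.3, scipy 1.17.1 and matplotlib 3.10.9 were used. The windows, the 37 gene lists, the tests and the rule for named genes were chosen with earlier results of these data known. That rule took the 8 genes with the highest and the 8 with the lowest difference at a mean of at least 10 RPKM, the 2 members of each list with the largest absolute difference, ACT1, and the 5 genes with the largest change in each direction within a window. Promoters were picked as those of 3 genes in each direction with the most motif kinds; 1 of them is not reported here. Scaling, pseudocount, filter, thresholds, left-out libraries and a replicate block were varied.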

Additional observations from a re-analysis of the deposited data

Results flagged for a closer look

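In 188 sets of 4 values (the named genes, depth and control share in each window), the gap of 1 library to the nearest other was compared with the whole range. In 4 sets this ratio exceeded Dixon's critical value, and chance alone gives about 1 in 20. All lay after the burst. For MRPS9 the ratio was 0.92, with time point 10 low. For HXT4 it was 0.941, with time point 10 high at 5.55 RPKM against 2.97 to 3.09 RPKM. For MEF1 it was 0.835, with time point 1 high, and for RPN8, a proteasome subunit, 0.86, with time point 20 low. The cause was not tested.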

How the results depend on the processing

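The counts of genes apart between the windows stayed within 1.5 times under both pseudocounts, both filters, median centring and upper-quartile scaling, with 146 to 207 higher and 349 to 401 lower. At 1.5-fold there were 482 higher and 606 lower, and at 4-fold 4 and 38. Scaled to the control RNAs there were 55 and 15. With 1 library left out, higher genes ran from 97 (without time point 8) to 321 (without 19; 302 without 9) and lower genes from 238 (without 1) to 520 (without 10). Chosen after seeing the data, a burst of time points 9 and 19 alone gave 60 and 179, and an after window of 10 and 20 alone gave 183 lower genes.

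For position 9 against 8, scaling to the controls left 0 and 1, no minimum fold gave 939 and 333, and an adjusted p under 0.01 gave 12 falling genes; leaving out 1 library gave 30 to 497 rising and 0 to 278 falling, with 76 rising without time point 19 and 72 falling without 9. For position 10 against 1, no gene was higher under a pseudocount of 5, with no filter or scaled to the controls, where 17 were lower; both counts were 0 with only the 8 libraries or an adjusted p under 0.01. Leaving out 1 library gave 0 to 512 higher and 0 to 175 lower. With the nominal cycle as a replicate block these counts became 3 and 13, and those of position 9 against 8 became 236 and 169. The labels do not pair time points by cycle; the differences between cycles correlated across genes at 0.07 between positions 8 and 9, 0.34 between 9 and 10, 0.17 between 8 and 10 and -0.14 between 10 and 1. The passage test gave 2 genes without a filter. Leaving out time points moved the control share difference between -0.17 and 0.05 percentage points, and it was 0.038 without time point 1 and 0.051 without 19. The cause was not tested in any case.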
